A study of Mus musculus with 6 samples.

Results

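Endothelial cells line the inside of blood and lymph vessels, and the 33 genes described here mark that lining or are known for keeping its character. They were taken as a list of gene names, and each gene was read through the probe sets that the platform annotation pairs with exactly 1 gene symbol. The list has 58 probe sets of the 45101 on the array. Of these, 53 were bright enough to be tested, and they cover all 33 genes, out of 13112 tested genes in all.

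White fat of the epididymal pad was taken from males at 10 weeks, 1 mouse for each array of the Affymetrix MOE430v2.0 design. The transgenic group was 3 mice on a mixed C57BL6;SJL background that carry nuclear SREBP1c, a transcription factor of lipid synthesis, under the aP2 (Fabp4) promoter. The labels spell this transgene in 3 slightly different ways and call the mice lipodystrophic, a state of lost or poorly formed fat. The control group was 3 WT mice of the same C57BL6;SJL background, described as litter-matched, and no treatment is given for either group. The aP2 promoter is best known from fat cells, but Fabp4 itself is also made by macrophages and by capillary endothelial cells. The labels do not say whether the transgene is active in endothelial cells.

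The values are MAS5 signals, a linear intensity per probe set, and differences are given as log2(signal + 16), transgenic minus wild type, with the standard error (SE) of a limma fit over all tested probe sets. A gene was called where its Benjamini-Hochberg adjusted p was under 0.05, and a gene with several tested probe sets was represented by the one with the highest mean. The array of transgenic replicate 2 stood apart in RNA quality. Its 3′ over 5′ signal ratio was 122 for beta-actin and 55.9 for Gapdh, against 1.11 to 1.81 and 0.772 to 1.22 on the other 5 arrays, and shortened RNA is known to raise this ratio. The median signal was 37.7 on that array and 53.4 to 65.4 on the others. Counts are therefore given with and without transgenic replicate 2. The lowest adjusted p of a member with all 6 arrays was 0.108 (Cldn5). As to the label, the 11 measured adipocyte markers summed to 46225 to 59494 in transgenic and 79320 to 88263 in wild type arrays, while 5 measured epididymis markers summed to only 89.5 to 140.5 and 112 to 139.8.

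By way of background, endothelial cells are held together by VE-cadherin (Cdh5) and claudin-5 (Cldn5) at their junctions, and they read growth signals through the VEGF receptors (Kdr, Flt1, Flt4) and the angiopoietin receptor Tek with its partner Tie1. Transcription factors of the ETS and SOX families, among them Erg, Sox17 and Sox18, keep the endothelial programme running. In white fat the capillaries deliver oxygen and pass fatty acids from the blood to the fat cells.

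Most of the 33 genes were lower in the transgenic fat, by amounts that ranged widely between genes. Without transgenic replicate 2, 12 of 33 genes fell (36.4%), 0 rose and 21 were not called, where 7.33% of all 13112 tested genes fell and 8.04% rose. The genes that fell were Cldn5, Nos3, Rasip1, Esam, Robo4, Ptprb, Mmrn2, Tie1, Ramp2, Cdh5, Tek and Pecam1, with log2 differences from −1.35 for Cldn5 to −0.62 for Pecam1. With all 6 arrays 0 of 33 genes passed the limma test, against 3.77% of all tested genes, and 10 had an unadjusted p under 0.05, all 10 of them lower, where 8.95% of all tested genes were. The median log2 difference of the 33 genes was −0.50 without transgenic replicate 2 and −0.98 with all 6 arrays, against 0.02 and −0.04 for all tested genes. Without transgenic replicate 2, 27 of the 33 values were below 0, against 47.8% of all tested genes. These members were chosen with results of the same arrays known, so the counts describe the list and test nothing about it as a whole.

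The direction was seen on each transgenic array taken alone. Relative to the wild type mean, the median of the 33 genes was −0.58 on transgenic array 1, −2.14 on array 2 and −0.41 on array 3. Over all tested genes the same medians were −0.11, −0.12 and 0.16. The wild type arrays, each set against the mean of the other two, had medians of 0.11, −0.05 and −0.02 for the 33 genes, so the transgenic shift was larger than the spread between wild type mice. The 33 representative probe sets held 0.137%, 0.0932% and 0.138% of all signal on the transgenic arrays, against 0.210%, 0.203% and 0.197% on the wild type arrays, a measure that does not depend on the scaling of an array. In 21 of 33 genes (63.6%) all 3 transgenic arrays lay below all 3 wild type arrays, against 16.3% of all tested genes, and the reverse was seen in 0 of 33, against 14.1%. Leaving out transgenic replicate 2 gave 23 of 33 below (69.7%), against 22.4% of all tested genes, and 1 of 33 above, against 24.1%. In a whole-tissue sample, fewer endothelial cells and less RNA per endothelial cell cannot be told apart.

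**Figure D1:**
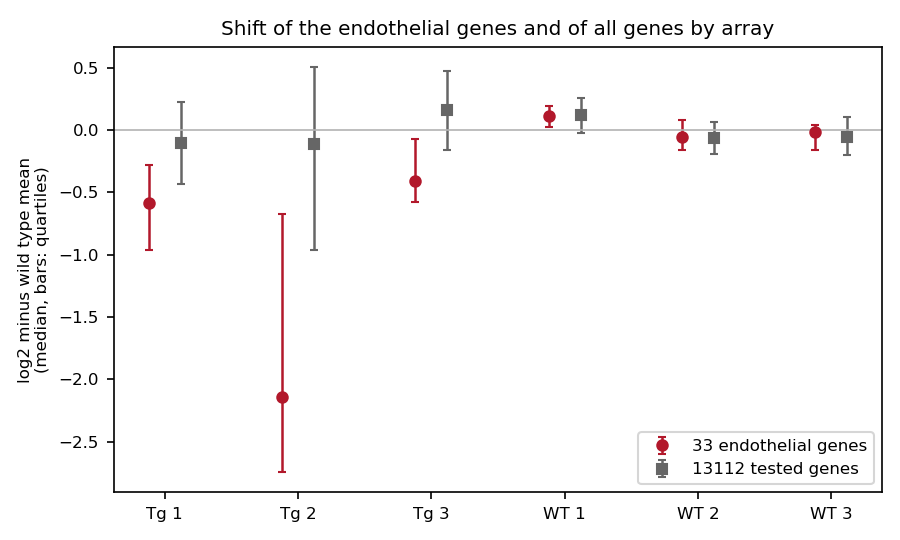
Median (points) and quartiles (bars) of log2(signal + 16) minus the wild type mean on each array, for the 33 endothelial genes (red) and all 13112 tested genes (grey); each wild type array is set against the mean of the other two. The endothelial medians of the transgenic arrays lie at −0.58, −2.14 and −0.41, below those of all genes on the same arrays.

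Of the 12 calls, those of Cldn5 and Nos3 did not depend on any 1 further array. Both passed the threshold in all 5 fits that left out 1 more array in addition to transgenic replicate 2, and in all 9 that changed another choice. Rasip1 passed in 4 of the 5, with an adjusted p of up to 0.0523. Esam, Robo4 and Ptprb passed in 3 of the 5, Cdh5, Mmrn2, Ramp2, Tek and Tie1 in 2 and Pecam1 in 1. The number of the 33 genes that fell was 3 without wild type replicate 1, where 4.59% of all tested genes fell. It was 2 without wild type replicate 2 (4.29%), and numbers this small do not set the 33 genes apart from all genes. It was 7 without transgenic replicate 1 (5.28%), 10 without wild type replicate 3 (6.93%) and 13 without transgenic replicate 3 (9.06%), with 0 rises each time. Samples also fell into classes by the 3′ over 5′ ratio of the Pcx control. The low class was transgenic replicate 1 at 3.10 with wild type replicate 3 at 3.06. In the high class the ratio was 14.1 on transgenic replicate 2 and 40.6 to 52.0 on the remaining arrays. Unlike the beta-actin and Gapdh ratios, it was thus not highest on transgenic replicate 2. Within the classes, without transgenic replicate 2, the median log2 difference of the 33 genes was −0.67 between transgenic replicate 1 and wild type replicate 3, and −0.40 between transgenic replicate 3 and the mean of wild type replicates 1 and 2. The same medians over all tested genes were −0.09 and 0.15. Of the 33 genes 25 were below 0 within both classes, against 32.3% of all tested genes. These are the same arrays as in the fit and add no independent samples.

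**Figure D2:**
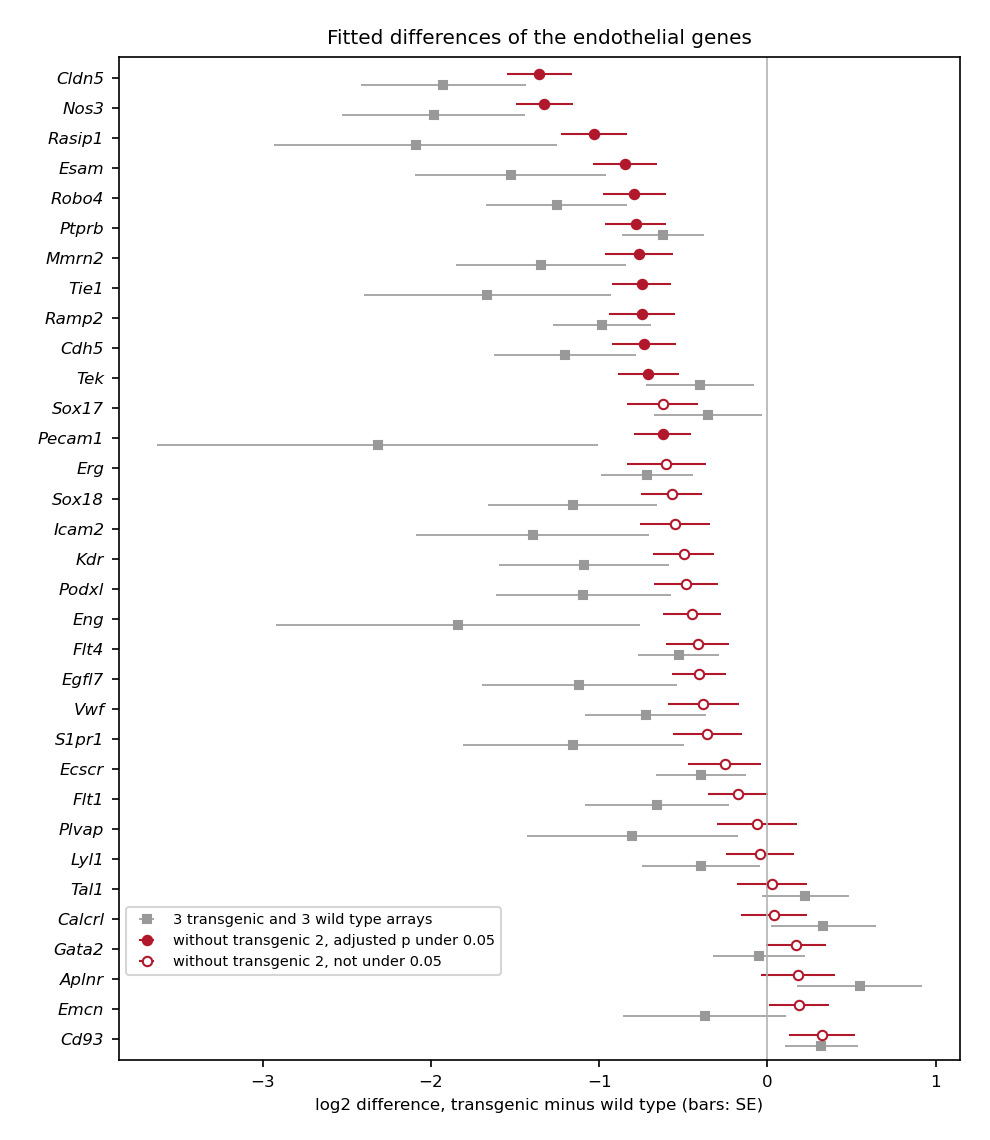
Log2 difference, transgenic minus wild type, with SE bars for the 33 genes, without transgenic replicate 2 (red circles, filled where the adjusted p was under 0.05) and with all 6 arrays (grey squares). The 12 filled circles all lie left of 0, and the grey SE bars are wider for most genes, widest for Pecam1.

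The start regions of some of these genes are shown because several of them were lower together. RefSeq (GRCm38.p6) promoter windows, 250 bases before to 50 bases after a start site, were available for 16 of the 33 genes. Printed below, 5′ to 3′, are the windows of the 4 genes with the lowest and the 2 with the highest log2 difference (without transgenic replicate 2) among those with a single window. Capitals mark GGAAG or its reverse complement CTTCC, a form of the motif read by ETS factors such as Erg. Other forms of that motif are not marked or counted.
Cldn5, chr16:18776597-18776896, plus strand: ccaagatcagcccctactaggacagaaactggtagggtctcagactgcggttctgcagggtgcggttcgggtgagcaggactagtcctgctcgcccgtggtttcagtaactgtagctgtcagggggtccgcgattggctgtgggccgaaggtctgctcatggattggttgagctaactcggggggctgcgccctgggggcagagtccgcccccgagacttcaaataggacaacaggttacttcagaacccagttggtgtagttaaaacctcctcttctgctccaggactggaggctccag
Rasip1, chr7:45627287-45627586, plus strand: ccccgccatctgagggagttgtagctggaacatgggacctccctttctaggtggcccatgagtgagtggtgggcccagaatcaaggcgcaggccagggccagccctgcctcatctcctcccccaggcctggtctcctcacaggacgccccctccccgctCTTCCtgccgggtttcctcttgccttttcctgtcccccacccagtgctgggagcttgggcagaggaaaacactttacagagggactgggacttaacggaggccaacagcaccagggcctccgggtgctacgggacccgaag
Robo4, chr9:37401722-37402021, plus strand: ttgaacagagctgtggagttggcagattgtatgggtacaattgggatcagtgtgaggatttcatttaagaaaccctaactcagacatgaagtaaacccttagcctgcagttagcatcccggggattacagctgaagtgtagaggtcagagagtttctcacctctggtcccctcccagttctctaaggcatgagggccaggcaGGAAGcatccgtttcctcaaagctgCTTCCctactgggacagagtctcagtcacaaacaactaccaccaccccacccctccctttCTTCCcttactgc
Tie1, chr4:118489800-118490099, minus strand: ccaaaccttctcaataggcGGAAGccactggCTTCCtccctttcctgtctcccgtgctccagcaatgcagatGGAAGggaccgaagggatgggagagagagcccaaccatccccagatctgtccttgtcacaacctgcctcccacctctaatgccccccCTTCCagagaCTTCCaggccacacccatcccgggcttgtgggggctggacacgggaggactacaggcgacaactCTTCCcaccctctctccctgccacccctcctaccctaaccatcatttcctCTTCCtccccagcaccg
Calcrl, chr2:84425217-84425516, minus strand: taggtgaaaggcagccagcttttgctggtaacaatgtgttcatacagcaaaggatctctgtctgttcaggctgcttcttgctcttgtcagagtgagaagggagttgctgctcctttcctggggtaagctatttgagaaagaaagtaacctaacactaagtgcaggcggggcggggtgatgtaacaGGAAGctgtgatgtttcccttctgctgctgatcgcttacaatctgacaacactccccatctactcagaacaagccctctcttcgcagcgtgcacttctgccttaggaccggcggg
Emcn, chr3:137340828-137341127, plus strand: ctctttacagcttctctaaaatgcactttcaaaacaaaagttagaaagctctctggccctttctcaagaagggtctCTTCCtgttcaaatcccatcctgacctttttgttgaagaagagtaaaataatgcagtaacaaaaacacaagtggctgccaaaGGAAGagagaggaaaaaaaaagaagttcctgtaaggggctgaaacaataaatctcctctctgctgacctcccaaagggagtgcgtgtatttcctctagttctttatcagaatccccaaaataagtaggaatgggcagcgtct
Among the printed genes that fell, the Tie1 window held 7 matches, that of Robo4 3, that of Rasip1 1 and that of Cldn5 0. The window of Tek, which also fell and is not printed, held 0. The windows of Calcrl and Emcn, which did not pass the test, held 1 and 2. Over the 22 windows of the 16 endothelial genes 68.2% held GGAAG on either strand, against 71.4% of all 32851 windows in the table. ACAAT, a core read by SOX factors, was in 27.3% against 31.0%, and AGATAA, read by GATA factors, in 13.6% against 11.2%. Counts of short letters in a window are a description of the sequence and not of binding.

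Genes of junctions and of the cell surface held 5 of the 12 falls among 8 members, where 7.33% of all tested genes fell. Claudin-5, the tight junction protein of endothelium, gave the lowest value of the list without transgenic replicate 2, while with all 6 arrays Pecam1, Rasip1 and Nos3 were lower. Cldn5 had signals of 673, 214 and 807 in transgenic fat, against 2327, 1770 and 1689 in wild type fat. The groups did not overlap, and transgenic replicates 1 and 3 lay close together, with transgenic replicate 2 lower still. Without transgenic replicate 2 Cldn5 was 2.56-fold lower (log2 difference −1.35 ± 0.19 SE, adjusted p = 0.00171), and with all 6 arrays −1.93 ± 0.49 SE (adjusted p = 0.108).

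Esam, an adhesion molecule of endothelial junctions, had signals of 936, 258 and 1328 in transgenic and 2207, 1838 and 2014 in wild type fat. Its log2 difference was −0.84 ± 0.19 SE (adjusted p = 0.0185) without transgenic replicate 2. Cdh5, the VE-cadherin gene, had 1052, 457 and 1453 in transgenic and 2342, 2030 and 1856 in wild type fat (−0.73 ± 0.19 SE, adjusted p = 0.0341). In both genes the transgenic arrays lay below all wild type arrays, and with all 6 arrays Esam was at −1.53 (adjusted p = 0.251) and Cdh5 at −1.20 (adjusted p = 0.223). Ptprb encodes the phosphatase VE-PTP, which restrains Tek and steadies junctions. Its representative probe set had signals of 866, 1429 and 1182 in transgenic and 1820, 1756 and 1685 in wild type fat. Transgenic replicate 2 was thus the highest of the transgenic arrays on that probe set. On the other tested probe set of Ptprb it was the lowest, with 412, 164 and 244 in transgenic and 606, 578 and 945 in wild type fat. The log2 difference of the representative probe set was −0.78 ± 0.18 SE (adjusted p = 0.0196) without transgenic replicate 2 and −0.62 ± 0.24 SE (adjusted p = 0.273) with it.

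Pecam1, the surface protein CD31 by which endothelium is often stained, had the widest spread of the list. Its signals were 693, 6.6 and 812 in transgenic fat, against 1232, 1181 and 1081 in wild type fat. The value of transgenic replicate 2 was 0.567% of the wild type mean and below the 16 added before the log, while the other transgenic arrays were at 64.6% of it together. Without that array Pecam1 was at −0.62 ± 0.17 SE (adjusted p = 0.0415), and with it at −2.32 ± 1.31 SE (adjusted p = 0.438). The remaining junction and surface genes did not pass the test. Podxl, a sialomucin of the luminal surface, had signals of 473, 123 and 484 in transgenic and 730, 741 and 566 in wild type fat (−0.48 ± 0.19 SE, adjusted p = 0.141, without transgenic replicate 2). Its groups did not overlap. Icam2, a leukocyte adhesion molecule, was at −0.55 (adjusted p = 0.13). Emcn, the sialomucin endomucin of capillaries and veins, had 668, 219 and 819.5 in transgenic and 683, 603 and 659.5 in wild type fat, with overlap. It was at 0.19 (adjusted p = 0.571) without transgenic replicate 2 and at −0.37 (adjusted p = 0.721) with it, so its sign rested on that array.

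**Figure D3:**
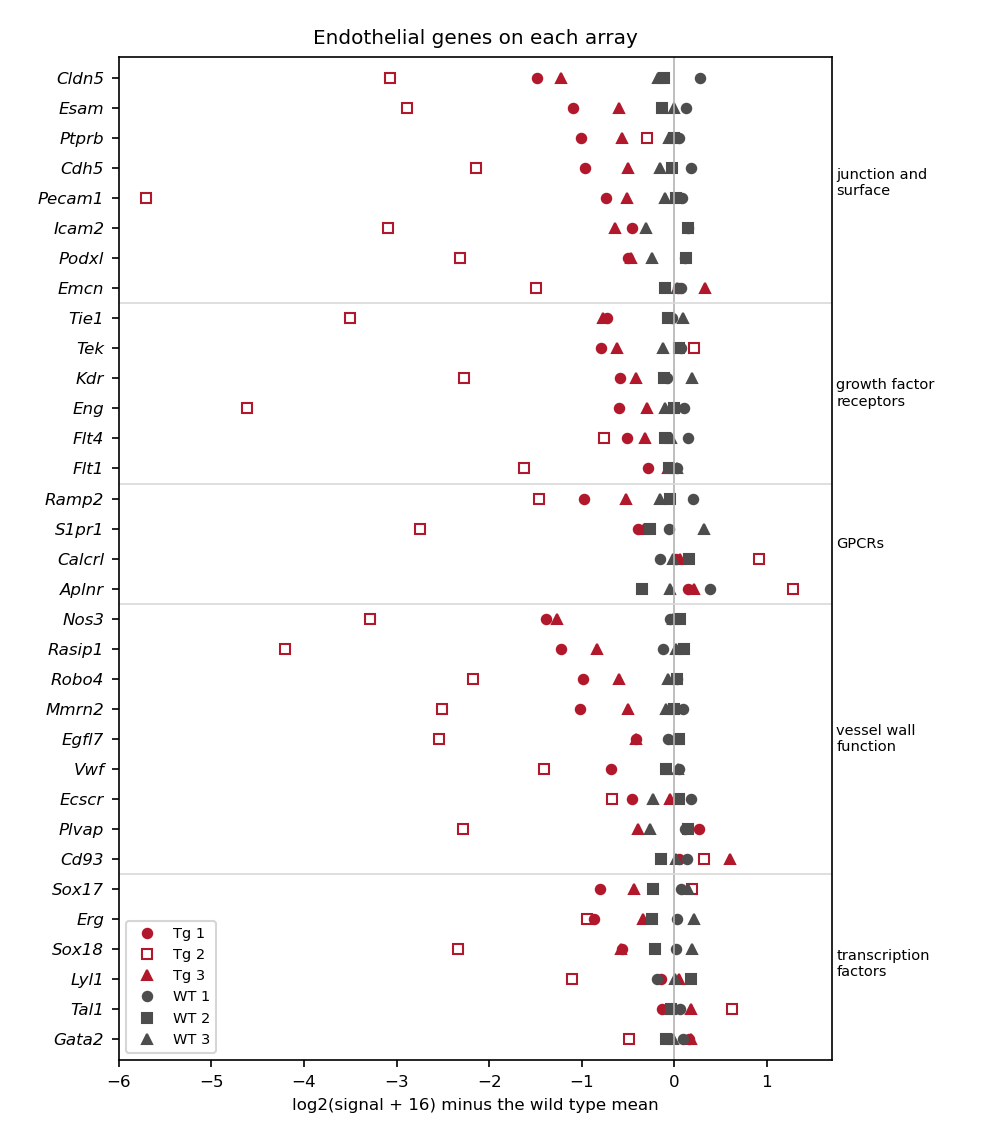
Log2(signal + 16) minus the wild type mean for each of the 33 genes on each array (Tg, transgenic, red; WT, wild type, grey; transgenic replicate 2 as open squares), grouped by role. Transgenic replicates 1 and 3 lie left of the wild type arrays for most genes, and transgenic replicate 2 ranges from −5.70 for Pecam1 to 1.28 for Aplnr.

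Among the 6 growth factor receptors, 2 fell without transgenic replicate 2, where 7.33% of all tested genes did. In all 6 both remaining transgenic arrays lay below the wild type arrays, against 22.4% of all tested genes. Tie1, the orphan partner of the angiopoietin receptor, had signals of 342, 36.2 and 331 in transgenic and 566, 548 and 615 in wild type fat. It was at −0.75 ± 0.17 SE (adjusted p = 0.0216) without transgenic replicate 2 and at −1.67 ± 0.73 SE (adjusted p = 0.326) with it. Tek, the angiopoietin receptor Tie2, had 335, 690 and 379 in transgenic and 622, 616 and 542 in wild type fat. Here transgenic replicate 2 was above every wild type array, the opposite of Tie1 on the same array. Tek was at −0.71 ± 0.18 SE (adjusted p = 0.0313) without it and at −0.40 ± 0.32 SE (adjusted p = 0.568) with it.

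None of the VEGF receptors passed the test (0 of 3 with limma). Kdr, the main VEGF-A receptor VEGFR2, was at −0.50 ± 0.18 SE (adjusted p = 0.112) without transgenic replicate 2, at 70.1% of the wild type mean. Flt4, the VEGF-C receptor that is also the receptor of lymphatic vessels, was at −0.41 (adjusted p = 0.204). Flt1, which binds VEGF-A, VEGF-B and placental growth factor, was at −0.17 ± 0.18 SE (adjusted p = 0.595), or 88.5% of the wild type mean. The other tested probe sets of Flt1, which were dimmer, were at −0.42, −0.39 and −0.38 (adjusted p = 0.202, 0.315 and 0.585). Eng, the TGF-beta co-receptor endoglin, had signals of 856, 37.7 and 1060 in transgenic and 1401, 1300 and 1219 in wild type fat. Its groups did not overlap, and it was at −0.45 ± 0.17 SE (adjusted p = 0.134) without transgenic replicate 2.

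Of the 4 genes of G protein-coupled receptors and their partners, Ramp2 alone fell, where 7.33% of all tested genes did. Ramp2 is the accessory protein that turns Calcrl into the adrenomedullin receptor. It had signals of 939, 668 and 1298 in transgenic and 2146, 1800 and 1675 in wild type fat, without overlap. The log2 difference was −0.75 ± 0.19 SE (adjusted p = 0.0346) without transgenic replicate 2 and −0.98 ± 0.29 SE (adjusted p = 0.153) with it. Calcrl, its receptor partner, was at 0.04 ± 0.19 SE (adjusted p = 0.925) without transgenic replicate 2. S1pr1, the sphingosine 1-phosphate receptor, was at −0.36 ± 0.20 SE (adjusted p = 0.317), with no overlap between the groups. Aplnr, the apelin receptor of sprouting and venous endothelium, had 1404, 3107 and 1478 in transgenic and 1668, 992 and 1231 in wild type fat. The groups of Aplnr overlapped (0.18 ± 0.22 SE, adjusted p = 0.665, without transgenic replicate 2), and transgenic replicate 2 was the brightest array.

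Genes of vessel wall function held 4 falls among 9 members without transgenic replicate 2, where 7.33% of all tested genes fell. Nos3, the endothelial nitric oxide synthase, had signals of 348, 81.1 and 378 in transgenic fat, against 904, 974 and 927 in wild type fat. The 3 wild type mice and transgenic replicates 1 and 3 each lay close together, and Nos3 was 2.51-fold lower without transgenic replicate 2 (−1.33 ± 0.17 SE, adjusted p = 0.000895). With all 6 arrays it was at −1.98 ± 0.54 SE (adjusted p = 0.129). Rasip1, a Ras-interacting protein needed for vessel lumens, had 261, 19.2 and 348 in transgenic and 579.5, 684 and 640 in wild type fat. It was 2.04-fold lower without transgenic replicate 2 (−1.03 ± 0.20 SE, adjusted p = 0.00809) and at −2.09 (adjusted p = 0.285) with all 6 arrays, and its groups did not overlap.

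Robo4, a guidance receptor that limits vessel leak, had signals of 403, 168 and 532 in transgenic and 833, 829 and 778 in wild type fat (−0.79 ± 0.19 SE, adjusted p = 0.0223, without transgenic replicate 2). Mmrn2, an extracellular matrix protein of endothelium that binds Cd93, had 399, 132 and 578 in transgenic and 885, 823 and 775 in wild type fat (−0.76 ± 0.20 SE, adjusted p = 0.0367). Neither gene had overlapping groups, and with all 6 arrays Robo4 was at −1.25 (adjusted p = 0.203) and Mmrn2 at −1.35 (adjusted p = 0.256). Cd93, the surface partner of Mmrn2, is also found on myeloid cells. Its signals were 1721, 2076 and 2529 in transgenic and 1826, 1501 and 1681 in wild type fat, with overlap. By representative probe set its log2 difference was the highest of the 33 genes (0.32 ± 0.20 SE, adjusted p = 0.346, without transgenic replicate 2). The other tested probe sets of Cd93 were at 0.28 and 0.06 (adjusted p = 0.504 and 0.870). Vwf, the clotting factor carrier that endothelium and platelets store, was at −0.38 (adjusted p = 0.3), and the secreted protein gene Egfl7 was at −0.41 (adjusted p = 0.141). Ecscr, an endothelial surface regulator, was at −0.25 (adjusted p = 0.517). Plvap, the diaphragm protein of fenestrae and caveolae, was at −0.06 (adjusted p = 0.905), at 97.4% of the wild type mean.

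No transcription factor passed the test (0 of 6 with limma in either fit, and 1 of 6 at an unadjusted p under 0.05 with all 6 arrays). Those best known from endothelium had the lower values. Sox18 had signals of 682, 188 and 674 in transgenic and 1024, 873 and 1161 in wild type fat, with no overlap (−0.57 ± 0.18 SE, adjusted p = 0.0754, without transgenic replicate 2). Sox17, a factor of arterial endothelium, was at −0.62 ± 0.21 SE (adjusted p = 0.0904), and its other tested probe set was at −0.79 ± 0.20 SE (adjusted p = 0.0286). Erg was at −0.60 ± 0.23 SE (adjusted p = 0.138). The factors shared with blood cells lay near 0, with Lyl1 at −0.04, Tal1 at 0.03 and Gata2 at 0.17 (adjusted p = 0.921, 0.954 and 0.616). Gata2, which mast cells and fat cell precursors also make, was the 1 gene of the 33 whose remaining transgenic arrays both lay above the wild type arrays.

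The probe sets of a gene gave different pictures on transgenic replicate 2. Of the 13 genes with several tested probe sets, 10 had probe sets whose signal on transgenic replicate 2, as a share of the wild type mean, differed by more than 3-fold. For Eng the shares were 2.89% and 115%, for Aplnr 15.1% and 239%, and for Mmrn2 15.9%, 98.5%, 103% and 125%. On the same array 15 of the 33 representative probe sets were under 20% of the wild type mean and 6 were above it. For Mmrn2 the 4 probe sets were at −0.76, −0.71, −0.70 and −0.49 without transgenic replicate 2, and the first 3 of these passed the test (adjusted p = 0.0367, 0.0253 and 0.0496). The second tested probe set of Ptprb was at −1.09 ± 0.28 SE (adjusted p = 0.0331), and that of Cdh5, which was dimmer, at −0.51 ± 0.60 SE (adjusted p = 0.654). Over the 53 tested probe sets of the list 16 fell and 0 rose without transgenic replicate 2, where 6.23% and 6.96% of all tested probe sets did. With all 6 arrays 0 of 53 passed the limma test, against 2.97%. Where on a transcript each probe set lies was not analysed here.

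**Figure D4:**
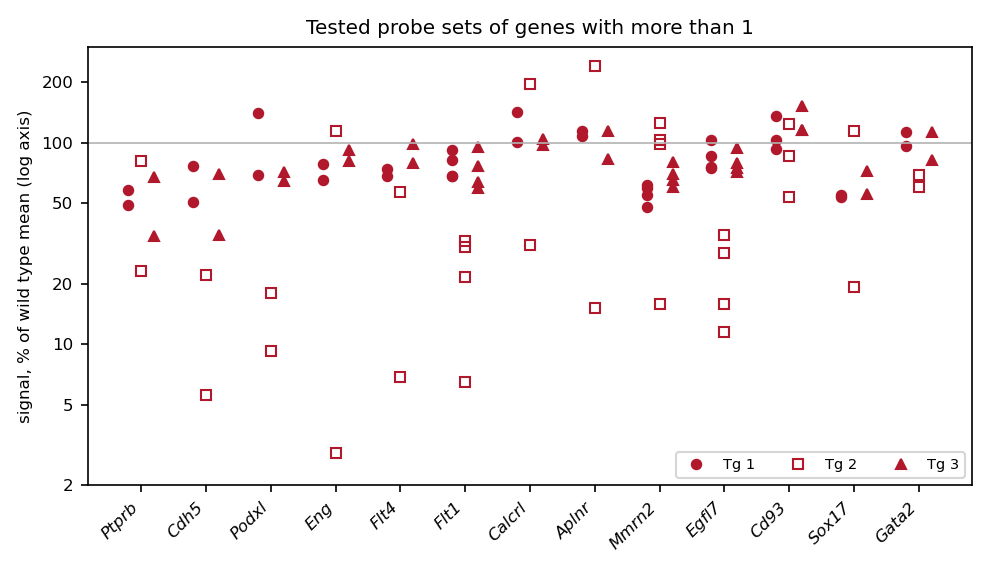
Signal of each tested probe set on transgenic replicates 1, 2 and 3 as a percentage of its wild type mean (log axis), for the 13 genes with several tested probe sets. On transgenic replicate 2 (open squares) the probe sets of Eng lie at 2.89% and 115% and those of Aplnr at 15.1% and 239%.

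In a second list of endothelial genes, none of them among the 33, calls were mostly lower, and most genes were not called. The list is not exclusive to endothelium, as Mcam is also on the list of mural markers and Cd34 on that of progenitor markers. How much of each signal came from other cell types was not tested. Of 37 tested genes 14 fell and 1 rose without transgenic replicate 2, against 7.33% and 8.04% of all tested genes, and 22 were not called. With 1 wild type array left out as well, 9 to 13 fell, the fewest without wild type replicate 2. Over all tested genes 4.29% to 6.93% fell in those fits. Without transgenic replicate 2 alone, both transgenic arrays lay below the wild type arrays in 22 of the 37 and above them in 6. Over all tested genes these shares were 22.4% and 24.1%. In the fit on all 6 arrays 2 fell and 0 rose, where 202 of the 13112 tested genes fell and 292 rose. The 2 that passed with all 6 arrays were Mcam and Thbd. Mcam, the adhesion molecule CD146 of endothelium and mural cells, had signals of 339, 357 and 483 in transgenic fat, against 2716, 2361 and 2494 in wild type fat. It was at −2.65 ± 0.23 SE (adjusted p = 0.00327) with all 6 arrays, 6.02-fold lower without transgenic replicate 2, and passed the test whichever of the 6 arrays was left out. Thbd, the anticoagulant receptor thrombomodulin, had 684, 787 and 901 in transgenic and 2640, 2693 and 2514 in wild type fat (−1.71 ± 0.20 SE, adjusted p = 0.00837), and its call was lost in 3 of the 6 fits on 5 arrays (highest adjusted p 0.0966). On both probe sets transgenic replicate 2 lay between the other transgenic arrays.

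The next largest changes in this list, without transgenic replicate 2, were those of Sox7, Gpihbp1, Dll4, Notch4, Cavin2 and Nostrin. Gpihbp1, the capillary protein that carries lipoprotein lipase to the vessel lumen, had signals of 1180, 199.5 and 1416 in transgenic and 3136, 2898 and 2952 in wild type fat (−1.20 ± 0.15 SE, adjusted p = 0.000956). Sox7, a relative of Sox17 and Sox18, had 164, 260.3 and 145 in transgenic and 413, 376 and 392 in wild type fat (−1.26 ± 0.18 SE, adjusted p = 0.00191), with every transgenic array below the wild type arrays. The Notch ligand gene Dll4 was at −1.14, the receptor gene Notch4 at −1.09 and the caveolar coat gene Cavin2 at −1.09 (adjusted p = 0.00503, 0.00974 and 0.000902). Nostrin, which encodes a protein that binds and traffics the nitric oxide synthase, alone rose (1.07 ± 0.25 SE, adjusted p = 0.0201), with signals of 101, 135 and 148 in transgenic and 57.5, 44.8 and 48.3 in wild type fat. Of the genes in this list that did not pass, Ackr1 at 0.68 (adjusted p = 0.0765) and the P-selectin gene Selp at 0.60 (adjusted p = 0.123) had the highest values. These 2 are named after their values were seen, and they stand for no class of endothelial genes. With all 6 arrays Nostrin was at 1.11 (adjusted p = 0.0589), and Gpihbp1 at −2.07 (adjusted p = 0.2).

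Ligands of the member receptors, with 2 genes of sphingosine 1-phosphate supply, changed in 1 of 11 tested genes without transgenic replicate 2, and in 0 of 11 with all 6 arrays (limma, 1 at an unadjusted p under 0.05). A share of 1 in 11 is near that of all tested genes that fell (7.33%). The gene that fell was Vegfb, a ligand of Flt1, at −0.96 ± 0.15 SE (adjusted p = 0.00327), named after its value was seen. Its signals were 1022, 43.2 and 1070 in transgenic and 2123, 1905 and 2113 in wild type fat. Vegfa, the main growth factor of blood vessels, was at −0.35 ± 0.19 SE (adjusted p = 0.29), and the angiopoietin genes Angpt1 and Angpt2 were at 0.44 and −0.33 (adjusted p = 0.323 and 0.317).

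Markers of other cell types moved as well, and the part of each in the endothelial values was not tested. Their counts stand against the same 7.33% of all tested genes that fell and 8.04% that rose without transgenic replicate 2. Of 8 mesothelial markers 7 fell without transgenic replicate 2 and 0 rose, and their summed signal was 1530 to 2433 in transgenic and 5890 to 6791 in wild type fat. Of 11 adipocyte markers 7 fell and 0 rose. Among 12 mural markers (smooth muscle and pericytes) 3 fell and 2 rose, with a summed signal of 9820 to 10744 in transgenic and 14248 to 16685 in wild type fat, and Mcam is on this list too. Of 6 tested lymphatic markers 3 fell and 0 rose, with sums of 1508 to 2963 and 2534 to 2800 that overlapped.

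With all 6 arrays 202 of the 13112 tested genes fell and 292 rose. In that fit 2 mesothelial, 3 adipocyte and 2 mural markers fell and 0 rose. Macrophage and mast cell markers went the other way. Without transgenic replicate 2, 7 of 12 macrophage markers rose and 1 fell, where 8.04% of all tested genes rose and 7.33% fell. Their summed signal was 27914 to 38384 in transgenic and 14316 to 16991 in wild type fat. Of 7 mast cell markers, a cell type that also uses Gata2 and Tal1, 5 rose and 0 fell without transgenic replicate 2. The mast cell sums were 1783 to 2605 and 827 to 997. Of 5 tested platelet markers, a cell fragment that also carries Vwf and Pecam1, 1 rose (Gp1bb) and 0 fell without that array. The platelet sums were 3140 to 4825 in transgenic and 2392 to 2648 in wild type fat, and they lie apart only with Gp1bb included. Gp1bb had signals of 979.5, 586 and 1202 in transgenic and 52.6, 39.8 and 29 in wild type fat. Pf4 was at 0.04, Ppbp at −0.77, Itga2b at 0.62 and Treml1 at 0.48 without transgenic replicate 2, none of them called. With all 6 arrays 2 macrophage, 2 mast cell and 1 platelet marker rose and 0 fell, against the 292 rises and 202 falls above. The summed signal of the 33 endothelial genes was 12833 to 22604 in transgenic and 28022 to 31253 in wild type fat, and the mean of transgenic replicates 1 and 3 was 70.7% of the wild type mean. The same share was 60.7% for the second endothelial list, 66.3% for mural, 66.0% for adipocyte, 36.4% for mesothelial and 211% for macrophage markers.

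**Figure D5:**
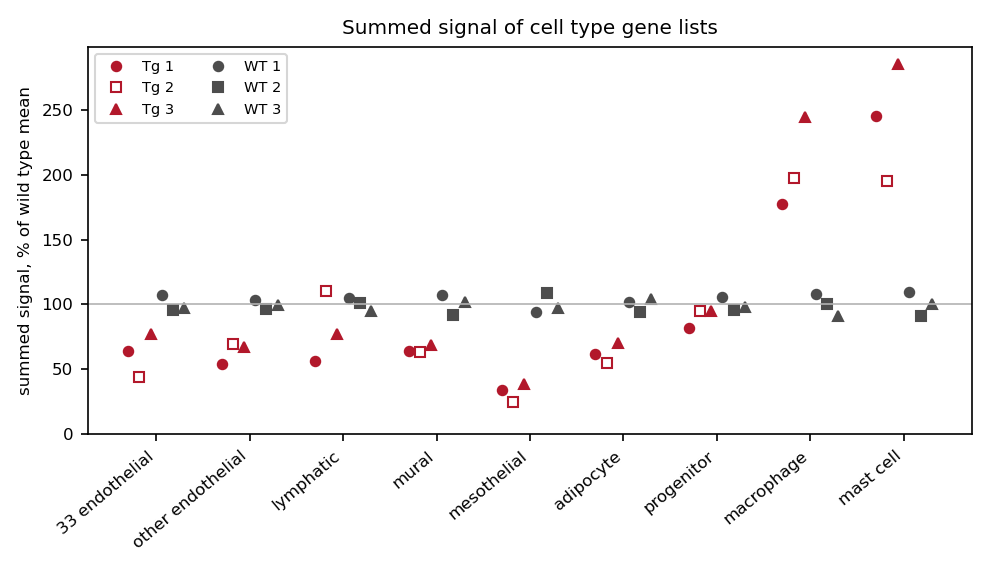
Summed signal of each gene list on each array as a percentage of its wild type mean (Tg, transgenic, red; WT, wild type, grey; transgenic replicate 2 as open squares). The endothelial, mural, mesothelial and adipocyte sums of all 3 transgenic arrays lie below the wild type arrays, and the macrophage and mast cell sums lie above them.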

How the data were processed

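Total RNA of 6 epididymal fat pads (3 transgenic, 3 wild type mice) was measured on Affymetrix arrays. The intensity values deposited by the authors, 1 per probe set, come from MAS5, as the submitters' processing notes name it. Its version and scaling target were not given in the sources used here, and no detection calls were used. No columns of other samples were present (0). Of 45101 probe sets 34958 pair with 1 gene, 932 with several and 9211 with none in the platform annotation.

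The log2 of signal + 16 was tested in R 4.3.3 with limma 3.58.1 (lmFit, eBayes with trend, two-sided), without further normalization. The 64 control probe sets and the dimmest 40% by mean over the 6 arrays were left out, and p-values were adjusted (Benjamini-Hochberg) over the 27023 left. The fit without transgenic replicate 2 has 3 residual degrees of freedom before moderation, against 4. The fit was tested on simulated data. Python 3.11.15 with pandas 2.3.3, numpy 2.4.6 and matplotlib 3.10.9 made the figures.

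The members and gene lists were chosen with earlier results of these data known. Named with values in every array are members past the threshold in either fit and 1 or more bright members of each role that were not. From the second endothelial list and the ligands, genes past it with 6 arrays and the next 6 by size without transgenic replicate 2 are named. Each array is another mouse, and a p-value reflects how mice and their handling vary. The number of arrays limits the precision. Alternatives were other offsets (1, 64), no filter or 60%, quantile normalization, median centring, array weights, the replicate number or Pcx ratio class as a block, the mean over probe sets, and arrays left out.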

Additional observations from a re-analysis of the deposited data

How the results depend on the processing

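The count of endothelial genes past the threshold with 6 arrays (0) was also 0 with offsets of 1 and 64, no filter, a 60% filter, median centring, both blocks and the mean over probe sets, 2 after quantile normalization (Cldn5 and Nos3), 5 with array weights and 0 to 12 with 1 array left out. With transgenic replicate 2 left out as well it was 16 after quantile normalization, 11 after median centring and 15 with the Pcx class as a block. The count of all probe sets (802) became 3359 with array weights, 341 with the replicate number as a block and 141 to 3565 with 1 array left out, and 4971, 3323 and 5937 under those 3 settings without transgenic replicate 2. Settings added after the data were seen moved the count of 12 without transgenic replicate 2 (7.33% of all tested genes fell) to 2 with the replicate number as a block (3.71%) and to 2 to 13 with 1 more array left out (4.29% to 9.06%), and no filter gave 8 (3.89%). In the second endothelial list 5 genes fell with the replicate block, against 14 without it. Where 1 transgenic array was left, it is assumed to vary like the others. The fits with arrays left out have fewer samples. Deviations of same-numbered arrays correlated at −0.37, 0.089 and −0.051. With 3 arrays in each group this cannot tell whether the numbers pair the mice.

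Of the single genes, 5 changed sign, all with a main difference of 0.55 or less in size. Gata2 (−0.051 with 6 arrays) was 0.14 after quantile normalization, 0.069 after median centring and 0.17 with array weights; with 1 array left out it ranged from −0.16 to 0.17, the highest without transgenic replicate 2, and it was 0.16, 0.11 and 0.17 with quantile normalization, median centring and the Pcx block added to that. Emcn (−0.37) was 0.20 with array weights and −0.73 to 0.19 with 1 array left out, the highest without transgenic replicate 2, and 0.17, 0.13 and 0.20 with those 3 added. Tal1 (0.23) was −0.0036 and −0.034, with quantile normalization and median centring added, and Calcrl (0.33) was −0.021 with median centring added. Aplnr (0.55) was −0.13 with the mean over its probe sets. The cause was not tested. The median of all genes moved from −0.04 to 0.06 after quantile normalization and 0.08 after median centring, and that of the 33 genes was −0.91 and −0.86.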

Other observations

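A pair of further probe sets is assigned to both Ramp2 and its neighbour Vps25 in the platform annotation and was therefore not counted for Ramp2. The first had signals of 624, 70.7 and 583 in transgenic and 612, 656 and 741 in wild type fat, with a log2 difference of −0.14 ± 0.18 SE (limma adjusted p = 0.67) without transgenic replicate 2. The second was at −0.0035 ± 0.17 SE (adjusted p = 0.993), whereas the probe set of Ramp2 alone was at −0.75. Which of the 2 genes those signals read cannot be told from the annotation.

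On 7 of the 58 endothelial probe sets (Cd93 with 2, and Cdh5, Calcrl, Flt1, Podxl and Ptprb with 1 each) wild type replicate 3 was more than 2 times as bright as the mean of wild type replicates 1 and 2, against 10.9% of all probe sets, a similar share. Of the 7, 3 (those of Cd93 and Ptprb) were too dim to be tested, and none is the representative probe set of its gene. Transgenic replicate 1 was the brightest transgenic array on all 7, and on 81.5% of all tested probe sets with this feature. The second probe set of Cdh5, for example, had signals of 231, 17.0 and 105 in transgenic and 98.8, 192 and 615 in wild type fat. The pattern was noticed in the data and was not looked for in advance. These arrays also had the low Pcx ratios (3.10 and 3.06), and the part of that difference was not tested.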
